A study of Mus musculus with 8 samples.

Results

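Genes of 6 cell surface proteins were described in regulatory T cells (Treg), namely the Ly6 family genes Ly6e, Ly6a, Ly6c1 and Ly6c2, together with Epcam and Cd101. They were chosen by name, as Ly6 genes and as genes of proteins that the study examined on Treg of the bone marrow, and make up 6 of the 38215 genes in the deposited tables. The RNAseq comprised 4 libraries of Treg from the bone marrow (BM-Treg) and 4 from the spleen (SP-Treg), prepared from sorted FoxP3+ cells of mice 12 weeks of age. The study describes the mice as untreated B6.FoxP3-GFP reporters, in which cells that express FoxP3 carry a green fluorescent protein, and the labels give the genotype of all 8 libraries as C57Bl/6. By the labels, the first 3 BM-Treg replicates belong to batch 1 and came from females, while batch 3 holds the fourth BM-Treg replicate and the spleen libraries, all male. Tissue, batch and sex therefore cannot be told apart except through BM-Treg replicate 4. A fit with batch as a term takes the tissue difference from that library against the spleen libraries alone. The labels do not give how many mice a library holds, so p-values measure the spread between these libraries. The titles of the spleen libraries carry ranges of numbers that overlap and whose meaning is not given. If they are pools with mice in common, the SP-Treg libraries are not independent and the p-values are too small.

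Ly6 proteins share a compact fold held together by disulfide bonds, and most are fixed to the outer face of the membrane by a glycosylphosphatidylinositol (GPI) anchor rather than by a stretch that crosses it. Ly6a encodes Sca-1, which marks haematopoietic stem cells and activated T cells of mice, and Ly6c1 and Ly6c2 encode the Ly6C antigens of memory T cells, monocytes and endothelium. Ly6e, once called thymic shared antigen or Sca-2, is found on many cells, and both Ly6a and Ly6e can be induced by interferons. EpCAM is a transmembrane adhesion protein known mainly from epithelium that is also present on some T cells and dendritic cells. CD101 is an immunoglobulin superfamily protein of the EWI group that restrains T cell activation and has been used to mark suppressive Treg.

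The 4 Ly6 members lie in one cluster on chromosome 15 (GRCm38, coordinates as deposited), spanning 156634 bases. Ly6e occupies 74955051 to 74959905 on the plus strand, and Ly6a (74994878 to 74997634), Ly6c1 (75045017 to 75048837) and Ly6c2 (75108160 to 75111684) follow on the minus strand. Epcam lies on chromosome 17 from 87635979 to 87651106 on the plus strand, and Cd101 on chromosome 3 from 100993530 to 101029556 on the minus strand. All 6 are annotated as protein coding, and their identifiers are ENSMUSG00000022587 (Ly6e), ENSMUSG00000075602 (Ly6a), ENSMUSG00000079018 (Ly6c1), ENSMUSG00000022584 (Ly6c2), ENSMUSG00000045394 (Epcam) and ENSMUSG00000086564 (Cd101).

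Ly6c1 and Ly6c2 are near copies, and their sequences are shown because reads had to be split between them. Their coding sequences in GENCODE M21 (GRCm38) have 396 bases each and differ at 9 of them, an identity of 97.7%. Of the stretches of 80 bases, the length of a read, that lie along each Ly6c1 or Ly6c2 transcript, 154 occur in both genes, between 20.1% and 20.7% of those of a transcript. The first 150 coding bases hold 6 of the 9 differences, shown as capitals:
Ly6c1: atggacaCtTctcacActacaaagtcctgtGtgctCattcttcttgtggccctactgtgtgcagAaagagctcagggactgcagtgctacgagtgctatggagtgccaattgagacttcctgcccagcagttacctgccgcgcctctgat
Ly6c2: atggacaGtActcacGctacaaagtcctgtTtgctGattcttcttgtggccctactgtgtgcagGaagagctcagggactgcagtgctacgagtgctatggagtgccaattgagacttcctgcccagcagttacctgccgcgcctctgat
The differences stand in the first part of the stretch, and 1 run of 188 coding bases is the same in both genes. Ly6a was less alike, with 82.0% identity to Ly6c1 over the aligned coding bases, and Ly6e had between 50.5% and 53.8% identity to the other members. Ly6a shared 1 stretch of 80 bases with Ly6i, its neighbour, and Ly6e, Epcam and Cd101 shared none with another gene.

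Expected counts, the numbers of reads assigned to a gene by estimation, summed to between 12427136 and 21921252 per library. Levels are given as CPM (counts scaled to a common library size by TMM), and genes are compared with each other only as FPKM, the authors' values per transcript length and depth. Of the 10 genes that define Treg and CD4 T cells, all were detected and 0 differed between the tissues by edgeR's quasi-likelihood test, while 2 had an unadjusted p under 0.05 and DESeq2 called 1 and limma-voom 0. Over all genes tested edgeR called 8.75%. B cell markers summed to 12.4 to 16.6 CPM over the BM-Treg libraries and 8.70 to 114 CPM over the SP-Treg libraries, with the highest sum in SP-Treg replicate 2. Erythroid markers summed to 8.59 to 12.5 CPM over the BM-Treg libraries and 2.41 to 163 CPM over the SP-Treg libraries. CD8 T and NK cell markers summed to 10.9 to 12.9 and 14.0 to 45.6 CPM, and plasma cell markers, nearly all from Irf4, which Treg also express, to 126 to 151 and 236 to 370.0 CPM in the same order. In bulk RNA, fewer cells with a transcript and less of it per cell cannot be told apart.

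The members spanned a wide range of levels. By mean FPKM, Ly6e ranked 36th and Ly6a 57th among the 13397 genes that passed the filter on low counts, with Ly6e at 1111 FPKM in BM-Treg and 803 in SP-Treg and Ly6a at 688 and 675. Epcam (17.9 and 11.9 FPKM), Ly6c1 (17.4 and 12.3 FPKM), Cd101 (6.99 and 8.42 FPKM) and Ly6c2 (1.15 and 1.02 FPKM) followed in that order. Ly6e was above Ly6a in 7 of 8 libraries, the exception being SP-Treg replicate 4 with 702 against 762 FPKM, and their ranges over the libraries overlapped, from 702 to 1326 FPKM for Ly6e and from 464 to 883 FPKM for Ly6a. Epcam and Ly6c1 did not differ beyond their spread, with 10.6 to 21.1 FPKM and 7.19 to 19.8 FPKM. Cd101 (5.32 to 10.1 FPKM) reached into the lowest libraries of Ly6c1, and Ly6c2 (0.130 to 1.69 FPKM) stood below all other members in every library.

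Epcam was the only member called between BM-Treg and SP-Treg, 1 of the 6 members, all of which passed the filter. Over all genes tested 8.75% were called at an adjusted p of 0.05, and a count of 1 among 6 says nothing particular about these genes. Ly6e was 1.31-fold higher in BM-Treg but missed the threshold, and Ly6a, Ly6c1, Ly6c2 and Cd101 did not pass it either. The fitted log2 fold changes of BM-Treg over SP-Treg ran from −0.32 for Cd101 to 0.53 for Epcam, while the median over all genes tested was −0.01.

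**Figure D1:**
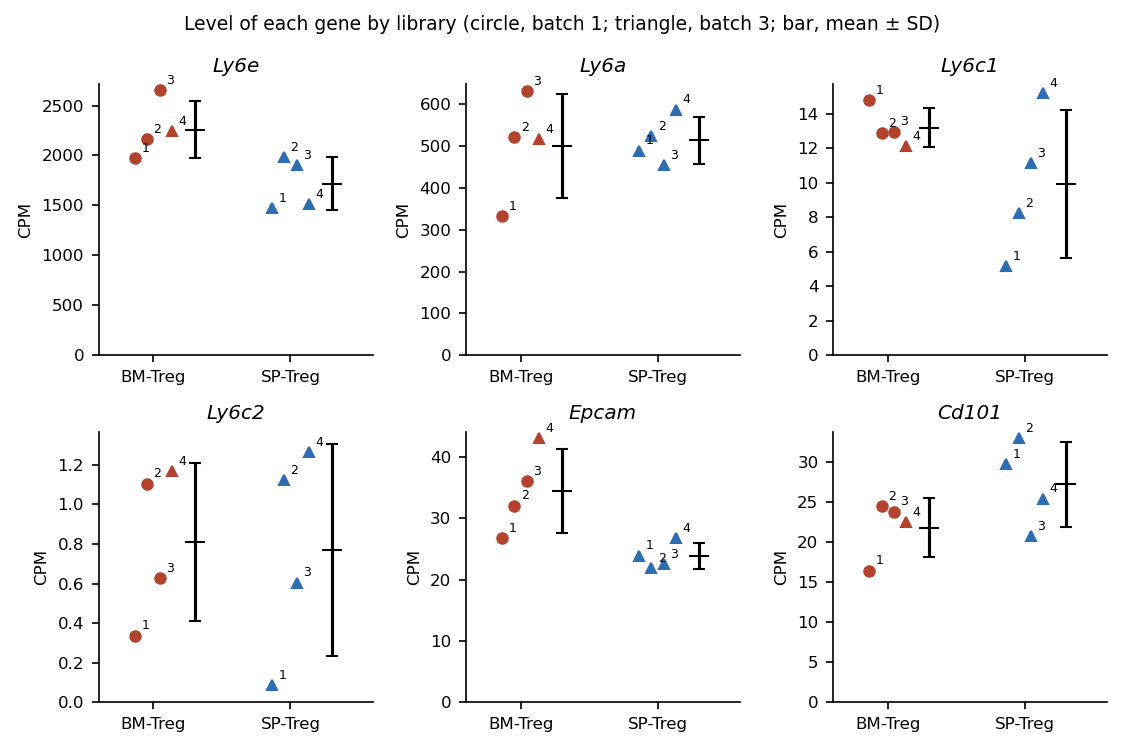
Level of each gene in CPM (y axis from 0) in the 4 BM-Treg (red) and 4 SP-Treg (blue) libraries, numbered by replicate, with circles for batch 1, triangles for batch 3 and the mean ± SD beside them. The BM-Treg libraries of Epcam sit between 26.8 and 43.1 CPM, above all SP-Treg libraries, and the tissues overlap for the other genes.

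Epcam stood at 26.8, 32.1, 36.1 and 43.1 CPM in BM-Treg replicates 1 to 4 and at 24.0, 21.9, 22.6 and 26.8 CPM in SP-Treg replicates 1 to 4. All 4 BM-Treg libraries lay above all 4 SP-Treg libraries, with the lowest BM-Treg library only just above the highest SP-Treg library. Of all genes tested, 7.61% had every BM-Treg library above every SP-Treg library. BM-Treg averaged 34.5 ± 6.85 CPM and SP-Treg 23.8 ± 2.13 CPM (SD, n = 4 per tissue), and the fold was 1.45 with a 95% interval from 1.16 to 1.80 (log2 fold change 0.53, SE 0.15, adjusted p = 0.0358, edgeR quasi-likelihood test). The exact two-sided permutation test of log2(CPM + 0.5) gave p = 0.0286, the smallest it can give with 4 libraries against 4.

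The call of Epcam was close to the threshold. Leaving out BM-Treg replicate 2, 3 or 4 raised the adjusted p to 0.0666, 0.0891 and 0.0943, and leaving out SP-Treg replicate 1, 2 or 3 raised it to 0.0647, 0.0944 and 0.0747, with log2 fold changes between 0.41 and 0.57. Without BM-Treg replicate 1 or SP-Treg replicate 4 Epcam was called. With batch as a term in the model the log2 fold change was 0.85, and within batch 3 alone it was 0.87. Both rest on BM-Treg replicate 4, the library with the highest Epcam level (43.1 CPM), against the SP-Treg libraries. Within batch 3 alone, that lone library was assumed to vary like the SP-Treg libraries. Epcam was called with the batch term and not in batch 3 alone. The direction was the same in each of 19 alternative fits, of which 9 made the call.

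**Figure D2:**
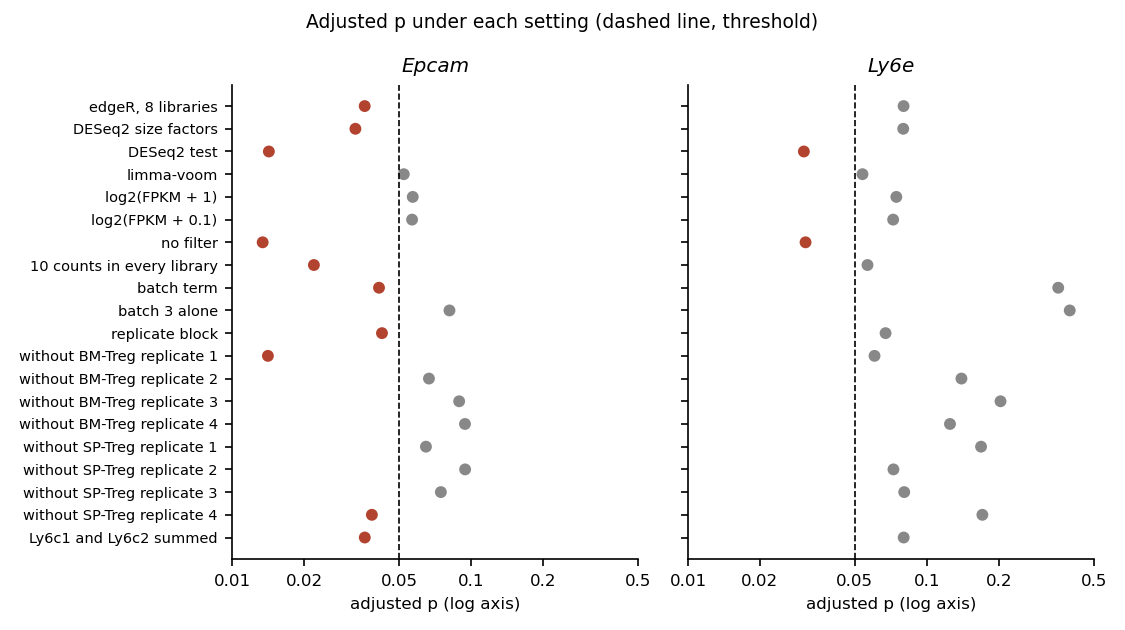
Adjusted p (x axis, log scale) of Epcam and Ly6e under the edgeR fit of 8 libraries and each of 19 alternatives (y axis), with red points under the dashed threshold of 0.05. Epcam falls on both sides of the line, between 0.0134 and 0.0944, and Ly6e passes it under 2 alternatives only.

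The 9 markers of epithelium summed to 0.753 to 1.67 CPM over the BM-Treg libraries and 0.798 to 1.25 CPM over the SP-Treg libraries, and the keratin genes Krt8, Krt5 and Krt14 were at 0 in all 8 libraries. Krt18, another keratin gene, did not pass the filter and stood at 0.585 to 1.32 CPM in the BM-Treg libraries and 0.367 to 0.504 CPM in the SP-Treg libraries, the same direction as Epcam. Cdh1, which did not pass the filter either, had the opposite direction, at 0 to 0.175 CPM in BM-Treg and 0.216 to 0.754 CPM in SP-Treg. BM-Treg replicate 4, with the highest Epcam level, had the lowest epithelial sum. The part of epithelial cells in the Epcam levels was not tested. Of the other genes listed for EpCAM, its relatives, partners and the proteases that cleave it, 13 passed the filter and 0 were called, with 4 at an unadjusted p under 0.05 and 0 called by DESeq2 or limma-voom. Over all genes tested edgeR called 8.75%. The claudins Cldn7 and Cldn1 did not pass the filter, with means of at most 0.113 CPM in either tissue. The members of this list with the highest FPKM were Psenen and Psen2, subunits of the gamma-secretase that releases the inner part of EpCAM, and Cd44, an adhesion receptor. Psenen had a log2 fold change of 0.30 (adjusted p = 0.203), Psen2 of 0.34 (adjusted p = 0.223) and Cd44 of 0.05 (adjusted p = 0.822), all by edgeR. Psen2 was called with a batch term, a fit that rests on BM-Treg replicate 4. That library stood at 113 CPM, against 64.6 to 71.6 CPM in the other BM-Treg libraries and 57.8 to 68.7 CPM in SP-Treg.

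Ly6e, the member with the highest level, stood at 1973, 2165, 2651 and 2241 CPM in BM-Treg replicates 1 to 4 and at 1470.0, 1981, 1907 and 1513 CPM in SP-Treg replicates 1 to 4. BM-Treg replicate 1 lay just below SP-Treg replicate 2, and the other 3 BM-Treg libraries lay above all SP-Treg libraries. On the FPKM scale all 4 BM-Treg libraries (986 to 1326) were above the SP-Treg libraries (702 to 900). The fold was 1.31 with a 95% interval from 1.08 to 1.598 (log2 fold change 0.39, SE 0.13, adjusted p = 0.0800, edgeR), and the exact two-sided permutation test gave p = 0.0571. DESeq2's test (adjusted p = 0.0306) and edgeR without a filter on low counts (adjusted p = 0.0311) called it. Leaving out single libraries gave adjusted p values between 0.0604 and 0.204, and within batch 3 alone the log2 fold change was 0.40 (adjusted p = 0.397).

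**Figure D3:**
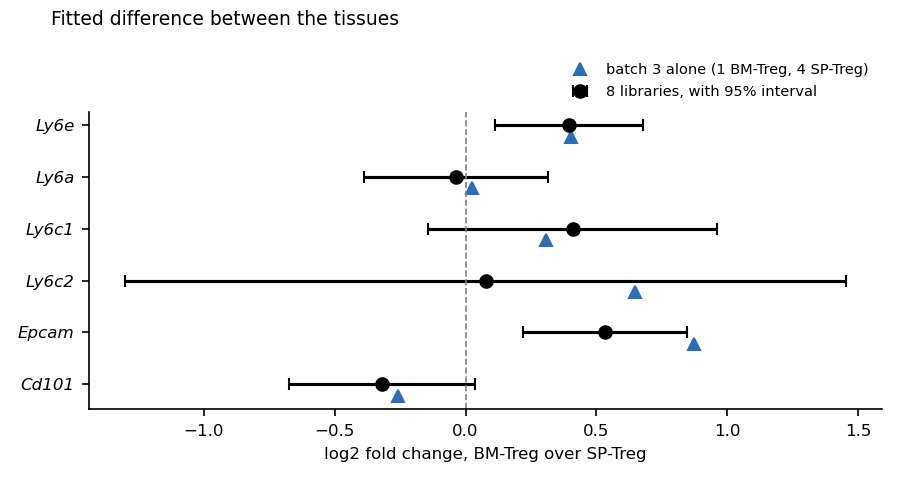
Fitted log2 fold change of BM-Treg over SP-Treg (x axis) for each gene, with black points and 95% intervals from edgeR over 8 libraries and blue triangles for batch 3 alone. The intervals of Epcam (from 0.22) and Ly6e (from 0.11) lie above 0, and that of Ly6c2 runs from −1.30 to 1.45.

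Ly6a, the gene of Sca-1, stood at 333, 521, 632 and 516 CPM in BM-Treg replicates 1 to 4 and at 489, 523, 454 and 587 CPM in SP-Treg replicates 1 to 4. The lowest and the highest of the 8 values were both in BM-Treg, and those of SP-Treg fell inside that range. The means were 500.5 ± 124 and 513 ± 56.7 CPM (SD, n = 4 per tissue). A log2 fold change of −0.04 was fitted with a 95% interval from −0.39 to 0.31 (adjusted p = 0.921, edgeR), so that folds under 0.76 and over 1.24 lay outside the interval. The sign turned without BM-Treg replicate 1 (log2 fold change 0.14) and in batch 3 alone (0.03), and no alternative made a call. Markers of haematopoietic progenitors, which carry Sca-1, summed to 5.83 to 14.5 CPM over the BM-Treg libraries and 4.63 to 12.3 CPM over the SP-Treg libraries, Kit averaged 0.325 and 0.544 CPM, and Mecom was at 0 throughout. Of the same markers, Procr was lower in BM-Treg, at means of 0.181 and 1.77 CPM (log2 fold change −3.14, adjusted p = 0.0127, edgeR). Meis1 had means of 1.8995 and 0.758 CPM (log2 fold change 1.32, adjusted p = 0.0794, edgeR), and Hlf was highest in BM-Treg replicate 4, at 12.04 CPM. Their part in the Ly6a levels was not tested.

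Ly6c1 stood at 14.8, 12.9, 12.96 and 12.1 CPM in BM-Treg replicates 1 to 4 and at 5.17, 8.22, 11.1 and 15.2 CPM in SP-Treg replicates 1 to 4. The BM-Treg libraries were close together (SD 1.13 CPM) and the SP-Treg libraries spread from below to above them (SD 4.27 CPM). The fold was 1.33 with a 95% interval from 0.91 to 1.95 (log2 fold change 0.41, SE 0.26, adjusted p = 0.368, edgeR). Without SP-Treg replicate 4 the log2 fold change was 0.69 (adjusted p = 0.0927), and without SP-Treg replicate 1 it was 0.21 (adjusted p = 0.615).

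Ly6c2 had few reads in any library. It had 6.15, 23.8, 14.3 and 14.0 expected counts in BM-Treg replicates 1 to 4 and 1.19, 14.1, 7.22 and 17.2 in SP-Treg replicates 1 to 4, which is between 0.0856 and 1.26 CPM. The tissues overlapped almost wholly, and the 95% interval of the fold ran from 0.41 to 2.74 (log2 fold change 0.08, adjusted p = 0.957, edgeR). A difference within that interval was not detectable at this depth. Ly6c2 made up 2.23, 7.91, 4.63 and 8.79% of the expected counts of Ly6c1 and Ly6c2 together in BM-Treg replicates 1 to 4 and 1.63, 12.01, 5.16 and 7.68% in SP-Treg replicates 1 to 4. The share did not differ between the tissues beyond the spread of the libraries (means of 5.89% and 6.62%, p = 0.857, exact two-sided permutation test). Of the 743 stretches of 80 bases along the Ly6c2 transcript, 589 occur in Ly6c2 alone and 154 in Ly6c1 too. The sum of Ly6c1 and Ly6c2 gave a log2 fold change of 0.39 (adjusted p = 0.410, edgeR), near that of Ly6c1 alone.

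Cells other than Treg that carry Ly6C were followed through their markers. Neutrophil markers summed to 8.02 to 16.5 CPM over the BM-Treg libraries and 2.16 to 24.5 CPM over the SP-Treg libraries, and Ly6g, the gene of the defining neutrophil antigen and a neighbour of the Ly6 members, had 0 counts in all 8 libraries, which allows up to 0.137 to 0.241 CPM per library. Mmp9, a protease of neutrophils and other cells, was higher in BM-Treg, at 5.39 ± 0.835 CPM against 2.02 ± 0.867 (log2 fold change 1.42, adjusted p = 0.0145, edgeR), with every BM-Treg library above every SP-Treg library. Ngp and S100a9, the other neutrophil markers that passed the filter, had the opposite direction. Ngp had means of 0.761 and 3.36 CPM (log2 fold change −2.10, adjusted p = 0.163, edgeR). S100a9 had means of 1.01 and 1.75 CPM (log2 fold change −0.90, adjusted p = 0.712, edgeR). Monocyte and macrophage markers summed to 173 to 287 CPM over the BM-Treg libraries and 128 to 201 CPM over the SP-Treg libraries. Most of that sum came from Ccr2, a chemokine receptor also found on T cells, while Itgam reached 25.3 CPM, Lyz2 18.9, Ms4a6c 11.3 and F13a1 10.1 CPM, and Csf1r, Cd14 and Fcgr1 were at most 3.33, 0.251 and 0.0837 CPM in any library. F13a1 stood at 2.30, 3.67, 7.96 and 10.1 CPM in SP-Treg replicates 1 to 4, the same order of libraries as for Ly6c1, and Lyz2 was lowest in SP-Treg replicate 1 (3.52 CPM). Ccr2 had the reverse order, at 138, 129, 88.6 and 81.0 CPM in SP-Treg replicates 1 to 4. Itgam and Ms4a6c were lowest in SP-Treg replicate 4 (6.10 and 9.06 CPM), where Ly6c1 was highest. Plasmacytoid dendritic cell markers summed to 60.6 to 70.1 CPM over the BM-Treg libraries and 47.2 to 81.9 CPM over the SP-Treg libraries, with the lowest sum in SP-Treg replicate 1, the library with the lowest Ly6c1 and Ly6c2. Of these markers, Ccr9 and Lair1 were lowest in that library (8.78 and 0.863 CPM), whereas Tcf4 and Pacsin1 were not (8.99 and 28.6 CPM). Pacsin1 was lower in BM-Treg, at means of 20.2 and 29.5 CPM (log2 fold change −0.55, adjusted p = 0.0415, edgeR). Tcf4 had the same direction (log2 fold change −0.43, adjusted p = 0.298, edgeR). Ccr9 and Lair1 had the opposite direction (log2 fold changes 0.41 and 0.48, adjusted p = 0.607 and 0.512, edgeR). Siglech, which defines these cells, was at most 0.822 CPM. Endothelial and stromal markers summed to 49.4 to 75.1 CPM over the BM-Treg libraries and 49.8 to 59.0 CPM over the SP-Treg libraries, most of it from Pecam1, and Emcn was at 0 throughout. Vcam1, an adhesion molecule of endothelium and stroma, was lower in BM-Treg, at means of 0.691 and 5.45 CPM (log2 fold change −2.92, adjusted p = 0.00222, edgeR). The part of these cells in the Ly6 levels was not tested.

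Cd101 stood at 16.4, 24.5, 23.8 and 22.5 CPM in BM-Treg replicates 1 to 4 and at 29.8, 33.0, 20.8 and 25.4 CPM in SP-Treg replicates 1 to 4. SP-Treg replicates 1, 2 and 4 lay above all BM-Treg libraries, and SP-Treg replicate 3 lay among them. The fold was 0.80 with a 95% interval from 0.63 to 1.02 (log2 fold change −0.32, SE 0.17, adjusted p = 0.265, edgeR), and the sign was the same in each of 19 alternatives with 0 calls. Markers of conventional dendritic cells, which can carry CD101, summed to 17.1 to 26.4 CPM over the BM-Treg libraries and 22.5 to 44.1 CPM over the SP-Treg libraries, with both the highest sum and the highest Cd101 in SP-Treg replicate 2. Zbtb46, a transcription factor of these cells, held most of the sum and had the same direction as Cd101, at 16.5 ± 3.78 CPM over the BM-Treg libraries and 25.1 ± 5.45 over the SP-Treg libraries (log2 fold change −0.60, adjusted p = 0.0688, edgeR), with its highest value, 32.1 CPM, in SP-Treg replicate 2. Itgax and Flt3, also on this list, had that direction too (log2 fold changes −0.77 and −0.12, edgeR). Cd209a had the opposite direction, at means of 2.92 and 1.83 CPM (log2 fold change 0.67, adjusted p = 0.497, edgeR). Clec10a, which did not pass the filter, was also higher in BM-Treg, at no more than 0.504 CPM in any library. The defining genes Xcr1 and Clec9a were at most 0.955 and 1.995 CPM. The part of dendritic cells in the Cd101 levels was not tested.

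The other EWI proteins and the tetraspanins that they bind gave no call by edgeR over the 8 libraries in either direction among 8 genes tested, Cd101 included. Over all genes tested edgeR called 8.75%. Of the 8 genes, 1 had an unadjusted p under 0.05 and was called by both DESeq2 and limma-voom. That gene was Ptgfrn, which encodes another EWI protein and was named after its values were seen. Ptgfrn averaged 6.97 ± 3.74 CPM over the BM-Treg libraries and 18.5 ± 4.53 CPM over the SP-Treg libraries (SD, n = 4 per tissue, log2 fold change −1.38, adjusted p = 0.0550, edgeR). It was lower in every alternative. The fits with a batch term and in batch 3 alone are given by log2 fold change only. Among the other edgeR fits it was called with a minimum of 10 counts per library (adjusted p = 0.0484). Without BM-Treg replicate 3 or 4 it was called too (adjusted p = 0.0241 and 0.0182). The log2 fold change was −2.98 with a batch term, −2.96 in batch 3 alone and −1.12 without BM-Treg replicate 4. The first 2 of these rest on BM-Treg replicate 4, at 2.34 CPM against 6.20 to 11.3 CPM in the other BM-Treg libraries. The members of this list with the highest FPKM were Cd81 (log2 fold change 0.22, adjusted p = 0.354), a tetraspanin, Cd82 (−0.16, adjusted p = 0.626), another tetraspanin, and Igsf8 (0.39, adjusted p = 0.228), an EWI protein that binds Cd81 and Cd9.

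The isoform tables held 9 transcripts of the 6 members, all of which passed the filter. None was called by edgeR's quasi-likelihood test over 28756 transcripts, where 0.146% were called, while 2 of the 9 had an unadjusted p under 0.05 and limma-voom called 0. The pair with an unadjusted p under 0.05 were the single transcript of Epcam, with a log2 fold change of 0.54 (adjusted p = 0.247), and the main transcript of Ly6e, ENSMUST00000169343, with 0.40 (adjusted p = 0.324). The test had little reach at the level of transcripts: on simulated data it recovered 0% of 2-fold and 42% of 4-fold changes, against 63% and 90% for genes. The simulation changed only a small part of the features, and the percentages depend on that setting. Epcam, Ly6a and Ly6c2 had 1 transcript each.

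ENSMUST00000169343 held between 99.2% and 99.9% of the expected counts of Ly6e in every library, and its coding sequence is the same as that of the other transcript, ENSMUST00000051698. The 2 transcripts of Ly6c1 also share their coding sequence. ENSMUST00000065408 held a mean of 68.1% ± 8.08 of the counts of Ly6c1 in BM-Treg and 73.6% ± 8.92 in SP-Treg (SD, n = 4 per tissue), with no difference beyond the spread (p = 0.486, exact two-sided permutation test, 0.607 adjusted over 5 shares).

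Cd101 alone had transcripts with different coding starts, which are shown because its counts were divided between them. They share 3059 coding bases, and the capitals mark the 43 and 31 bases of each that the other lacks, followed by the first 20 shared bases:
ENSMUST00000147399: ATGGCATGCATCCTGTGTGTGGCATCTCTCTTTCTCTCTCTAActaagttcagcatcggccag
ENSMUST00000167086: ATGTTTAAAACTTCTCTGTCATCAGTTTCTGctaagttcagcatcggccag
ENSMUST00000147399 had 86.0, 89.6, 71.3 and 0% of the counts of Cd101 in BM-Treg replicates 1 to 4 and 51.9, 0, 51.9 and 37.2% in SP-Treg replicates 1 to 4. The 3 BM-Treg libraries of batch 1 had the highest shares, and BM-Treg replicate 4 and SP-Treg replicate 2 had none. The difference of the means was 26.4 percentage points (p = 0.343, exact two-sided permutation test, 0.607 adjusted over 5 shares). Without BM-Treg replicate 4 it was 47.0 points (p = 0.0286, exact, unadjusted and the smallest that 3 against 4 libraries can give), and within batch 3 it was −35.3 points, of the opposite sign. Only 107 and 31 stretches of 80 bases are found in 1 of the 2 transcripts alone, and the estimates for each are uncertain.

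**Figure D4:**
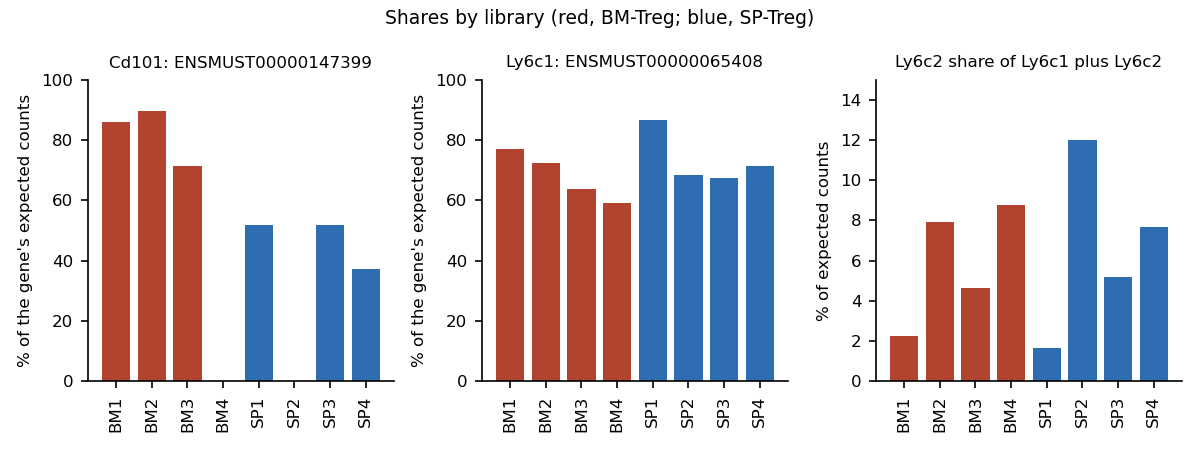
Share of the expected counts of Cd101 in ENSMUST00000147399, of Ly6c1 in ENSMUST00000065408, and of Ly6c1 plus Ly6c2 in Ly6c2 (y axes, percent, from 0) for each BM-Treg (red) and SP-Treg (blue) library. The Cd101 share is 0 in BM4 and SP2 and at least 71.3% in the other 3 BM-Treg libraries, whereas the Ly6c2 share lies between 1.63% and 12.01% in both tissues.

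The Ly6 and uPAR family was carried by its leading pair in these cells. Of 46 family genes listed, 36 were found in the tables, 15 of these had 0 counts in all libraries and 10 passed the filter. Ly6a and Ly6e together held between 98.1% and 98.8% of the summed FPKM of the family in every library. None of the 10 was called by edgeR with the filter or by limma-voom, while 2 had an unadjusted p under 0.05 and DESeq2 and edgeR without the filter called Ly6e. Over all genes tested edgeR with the filter called 8.75%. The median log2 fold change of the 10 was −0.16. Ly6d, an antigen of B cell progenitors, was highest at 4.15 CPM in SP-Treg replicate 2, the library with the highest sum of B cell markers. Ly6i stood between 0.578 and 1.09 CPM, and the other family genes that passed were Ly6k, Ly6g5b, Lynx1 and Lypd1.

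**Figure D5:**
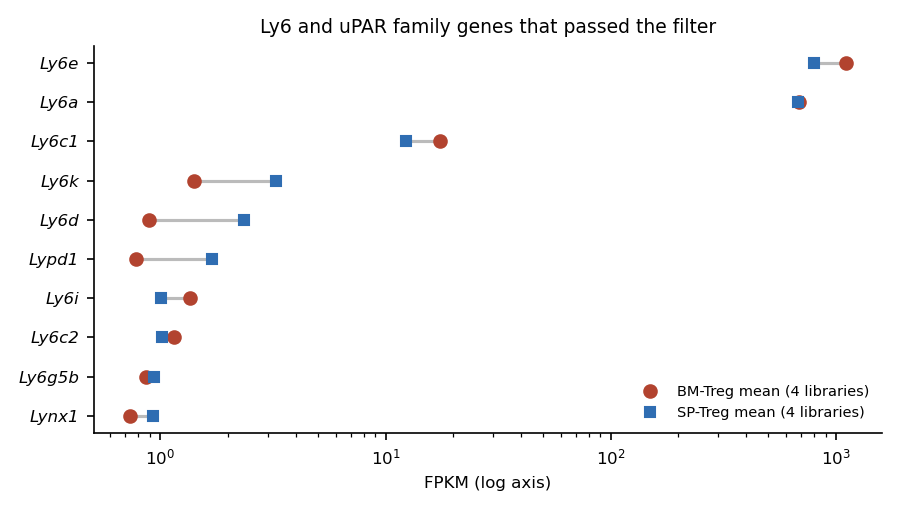
Mean FPKM (x axis, log scale) of the 10 Ly6 and uPAR family genes that passed the filter, in BM-Treg (red circles) and SP-Treg (blue squares), 4 libraries each. Ly6e and Ly6a stand at 675 FPKM or more, Ly6c1 at 12.3 and 17.4, and the rest at 3.27 FPKM or less.

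No gene near the cluster was called by edgeR among those that passed the filter. Within 500 kb of its outer members, 33 genes were in the tables, of which 16 had 0 counts in all libraries and 11 passed the filter. Of the 11, edgeR and limma-voom called 0, 1 had an unadjusted p under 0.05, and DESeq2 called 1, which was Ly6e. Over all genes tested edgeR called 8.75%, so that 0 among 11 says nothing particular about this region.

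Enzymes that build and remodel the GPI anchor, on which Ly6 proteins depend, were detected in full. All 31 listed genes passed the filter, 2 were higher in BM-Treg and 0 lower, with a median log2 fold change of 0.12, and over all genes tested 3.72% were higher. Dpm3, a subunit of the enzyme that supplies mannose for the anchor, was higher in BM-Treg, at 9.07 ± 0.580 CPM against 3.63 ± 1.53 (log2 fold change 1.32, adjusted p = 0.00902, edgeR). Tmem8, a phospholipase that cleaves GPI anchors, rose from 30.3 ± 4.08 to 45.6 ± 5.10 CPM (log2 fold change 0.59, adjusted p = 0.0116, edgeR). With a batch term neither was called, at log2 fold changes of 1.30 and 0.60. Dpm2, Pigt and Pigs had the highest FPKM of the list, with log2 fold changes of 0.24, 0.11 and 0.16 and adjusted p values of 0.322, 0.573 and 0.455.

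Several genes that respond to interferon, as Ly6a and Ly6e can, were lower in BM-Treg. Of 38 that passed the filter, without counting the members, 8 were lower and 2 higher, against 5.02% lower and 3.72% higher over all genes tested. The median log2 fold change of the 38 was −0.23. The genes that fell included the GTPase Iigp1, at 81.5 ± 25.8 CPM against 194 ± 15.2 CPM in the spleen (log2 fold change −1.25, adjusted p = 0.00325, edgeR), and the related Igtp (−0.75) and Irgm1 (−0.52), and the guanylate-binding proteins Gbp2 (−0.72), Gbp3 (−0.61) and Gbp5 (−0.61). Ifit3, an antiviral effector, rose from 4.58 ± 0.601 to 8.44 ± 2.40 CPM (log2 fold change 0.89, adjusted p = 0.0271, edgeR). Ifi203 and Ifi27l2a, at the highest FPKM beside Igtp, had log2 fold changes of −0.11 (adjusted p = 0.654) and 0.24 (adjusted p = 0.642). With FPKM values the count of lower genes was 3, and with a batch term it was 5 with 0 higher. Ly6e, at a log2 fold change of 0.39, and Ly6a, at −0.04, did not follow the lower genes, and that difference was not tested.

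Among the genes of 21 surface antigens that the study followed by flow cytometry, 6 were higher and 4 lower in BM-Treg, against 3.72% higher and 5.02% lower over all genes tested. With a batch term 3 were higher and 1 lower, in batch 3 alone 1 and 0, on FPKM values 5 and 2, and without single libraries 5 or 6 were higher and between 2 and 5 lower. The study chose these antigens with these libraries in view, so that the count is not independent evidence. Epcam had the smallest change of the 10, and Cd101 and Ly6a were among the 11 not called. The others that rose were Ccr3 (log2 fold change 1.21), Klrg1 (1.07), Il1rl1 (1.04), Ifngr1 (0.84) and Il7r (0.82), and those that fell were Nt5e (−1.35), Lrrc32 (−1.34), Itgae (−0.91) and Tigit (−0.68), all by edgeR. Of 19 alternatives, Itgae lost its call in 11, Lrrc32 in 8 and Tigit in 4. Il2ra, with the highest FPKM of the list beside Ly6a and Tigit, had a log2 fold change of −0.62 (adjusted p = 0.0803) and was called in 4 of them.

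The genes most like each member over the 8 libraries, by Pearson correlation of log2 CPM among 8667 or 8668 genes of a mean log2 CPM of at least 3, differed from member to member. For Epcam they were Id2 (r = 0.99), Napa (0.98) and Isca1 (0.97), and for Ly6e they were Atg13 (0.98), Ucp2 (0.97) and Ncstn (0.97). For Ly6a they were Metazoa_SRP (0.95), Iscu (0.95) and Smu1 (0.93), for Ly6c1 they included 2900053A13Rik (0.97) and Gm4149 (0.96), for Ly6c2 they were Atp5j (0.93), Nprl3 (0.92) and Mrpl32 (0.92), and for Cd101 they were Cr1l (0.98), Lemd2 (0.97) and Nlrp1b (0.96). Between 7 and 60 genes reached an r of 0.9 with a member. These are descriptions over 8 points that share tissue, batch and depth.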

How the data were processed

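Before sequencing, RNA of sorted FoxP3+ cells went through single primer isothermal amplification. The submitters' processing notes name cutadapt 1.9, STAR 2.5.2a, RSEM 1.2.30 and the build GRCm38, and the annotation is not given in the sources used here. The authors deposited expected counts per gene and per transcript, without normalization between libraries, and FPKM values, which divide those counts by transcript length and depth. Columns were assigned to libraries by their names, with 0 left over. Expected counts were rounded, genes or transcripts were kept by edgeR's default filter, scaled by TMM and tested over the whole table with edgeR's robust quasi-likelihood test without covariates, adjusted by Benjamini-Hochberg and called at 0.05 (R 4.3.3, edgeR 4.0.16, limma 3.58.1, DESeq2 1.42.0). Since the study's methods name no test for the RNAseq, this was chosen for estimated counts with 4 libraries per tissue. The total expected counts of a library, from 12427136 to 21921252, set the counting error, and since the amplified reads carry no molecular identifiers, the printed errors are those between libraries. Single values were compared by exact two-sided permutation tests over 70 splits, and CPM values entered these as log2(CPM + 0.5). Libraries of the same tissue were not duplicates (chi-square per degree of freedom of at least 14.6).

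The members, gene lists, tests and alternatives were chosen with earlier results of these data known. Named genes are the 6 members, the called genes of each list up to 8 by absolute log2 fold change with the 3 of highest mean FPKM, called genes near the cluster, and the 3 genes most correlated with each member. Some genes given by this rule are not reported here. Alternatives were DESeq2's size factors, limma-voom, DESeq2's test, limma-trend on FPKM with a pseudocount of 1 or 0.1, no filter, a minimum of 10 counts per library, batch as a term, batch 3 alone, a replicate block, single libraries left out, the sum of Ly6c1 and Ly6c2, a threshold of 0.01 and a minimum absolute log2 fold change of 1. Of the symbols listed, Pigb stands on 2 identifiers, and the one with more counts was used. Sequences come from GENCODE M21. The fits were tested on simulated data for this comparison, where edgeR recovered 63% of 2-fold and 90% of 4-fold changes over 13184 and 13207 genes. Only a small part of the genes was changed there, a setting on which these percentages depend.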

Additional observations from a re-analysis of the deposited data

How the results depend on the processing

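The count of called members, 1 in the edgeR fit of 8 libraries, was 2 with DESeq2's test and without a filter, 0 with limma-voom, both FPKM scales, batch 3 alone, an adjusted p threshold of 0.01 and when a log2 fold change of 1 either way was asked for, and between 0 and 1 when single libraries were left out. Epcam lost its call with limma-voom (log2 fold change 0.50), log2(FPKM + 1) (0.55), log2(FPKM + 0.1) (0.58) and batch 3 alone (0.87), and without single libraries its log2 fold change lay between 0.41 and 0.66. Ly6e gained a call with DESeq2's test (0.40) and without a filter (0.42). The sign of Ly6a turned with a batch term (0.0070), in batch 3 alone (0.026) and without BM-Treg replicate 1 or SP-Treg replicate 4, over a range from −0.17 to 0.14, and Ly6c2 without single libraries ranged from −0.29 to 0.44. Ly6c1 and Cd101 kept their direction and stayed uncalled in every alternative. The Cd101 transcript share difference was −35.3 percentage points in batch 3 alone and between 14.7 and 47.0 without single libraries. Without single libraries the share difference of the main Ly6e transcript ran from −0.189 to 0.0386 points and that of Ly6c2 from −2.39 to 1.07 points. Of the other named genes, Ifi203 turned with a batch term (0.17) and in batch 3 alone (0.19), and Cd44 ran from −0.0052 to 0.13 without single libraries. The cause of these changes was not tested.

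Replicate numbers do not pair the samples: same-numbered libraries of the tissues had correlated deviations between −0.18 and 0.06. With the number as a replicate block the called members were 1, Epcam having an adjusted p of 0.0424, and the calls over all genes were 948 in place of 1172. The number of called genes was 258 with a batch term, 79 in batch 3 alone, 1730 with DESeq2 and 654 to 656 on FPKM values, and the called transcripts went from 42 to between 0 and 434. On FPKM values 415 of 656 calls were higher in BM-Treg, against 499 of 1172.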
